A study of Homo sapiens with 21 samples.

Results

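The clustered protocadherins are cell-surface adhesion proteins encoded by 3 neighbouring gene arrays on human chromosome 5, called alpha, beta and gamma. All genes of the deposited count table whose symbol follows the PCDHA, PCDHB or PCDHGA, PCDHGB and PCDHGC naming and that had any reads were taken. This gave 54 of 61268 genes, with 16 in the alpha cluster, 16 in the beta cluster and 22 in the gamma cluster. All 54 passed the low count filter as counted, and all lie on the plus strand within chr5:140786136-141512977 (hg38, as given in the deposited table).

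RNA came from H9, an established human embryonic stem cell line, which in every library carried TRE3G 2xFLAG-GSX2 WT, a tagged copy of the homeobox gene GSX2 behind a doxycycline-responsive promoter. The cells had been turned towards progenitors of the lateral ganglionic eminence, the part of the embryonic brain that forms the striatum, and 7 groups of 3 libraries were collected. One group was taken on day 10. The Dox groups received 100 ng/mL doxycycline for 12 h from day 10 and were taken 12, 24 or 48 h after day 10, so that at 24 and 48 h the drug had been withdrawn. The NoDox groups were taken at the same times without it. Every Dox group carried the transgene, and effects of the drug and of GSX2 cannot be told apart here. Whether the 3 libraries of a group were grown as separate cultures is not said in the labels, and the p-values rest on the spread among them, which may be technical.

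A library held 14439089 to 33842591 counted reads. GSX2 itself ranged from 277 to 296 CPM (counts relative to library size, scaled by TMM factors) in the Dox libraries at 12 h, against 7.08 to 10.6 in NoDox. In Dox it was down to 4.04 to 9.31 at 24 h and 1.91 to 2.03 at 48 h. Both ranges lay below those of NoDox, 11.3 to 14.7 at 24 h and 9.415 to 13.2 at 48 h. SP8, a marker of progenitors of the lateral ganglionic eminence, averaged 46.3 CPM in the Dox group at 12 h and 153 to 192 CPM in the other 6 groups. The pluripotency genes POU5F1 and NANOG averaged at most 0.185 CPM in any group. The 5 pluripotency genes of the marker list together summed to 134.9 to 244.5 CPM over the libraries, so others of them were expressed. Replicate 3 of Dox at 12 h and replicate 1 of day 10 stood apart from the other libraries of their groups, since the pairs they formed gave chi-square values of 16.7 to 26.8 and 10.8 to 14.5 for each degree of freedom, and the other pairs 1.85 to 5.67. In bulk RNA, fewer cells of a type and less RNA per cell cannot be told apart.

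Each alpha and gamma gene has its own first exon, which encodes the whole extracellular part of the protein and its membrane-spanning stretch, and is spliced to 3 constant exons that the genes of the cluster share and that encode the common end of the cytoplasmic tail. Beta genes have a single coding exon and no constant exons. A neuron typically transcribes a few of the variable genes, chosen largely at random through promoters that bind the factor CTCF, while the last genes of the alpha and gamma clusters, the C-types, are switched on more uniformly. The proteins bind copies of themselves on other cells, which serves neurons in telling their own branches from those of others and, for the gamma cluster, in survival.

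The first 2 constant exons are shown whole, because nearly all reads listed for a typical alpha or gamma gene came from the constant part. They were read from GENCODE transcripts on GRCh38, 5′ to 3′, and capitals mark positions at which alpha and gamma carry the same base when the exons are laid side by side from their first base.
alpha constant exon 1, chr5:140978949-140979007, plus strand: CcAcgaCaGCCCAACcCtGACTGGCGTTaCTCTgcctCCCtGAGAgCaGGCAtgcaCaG
gamma constant exon 1, chr5:141494807-141494865, plus strand: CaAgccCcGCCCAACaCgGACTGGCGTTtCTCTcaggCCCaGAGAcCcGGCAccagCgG
alpha constant exon 2, chr5:140982475-140982563, plus strand: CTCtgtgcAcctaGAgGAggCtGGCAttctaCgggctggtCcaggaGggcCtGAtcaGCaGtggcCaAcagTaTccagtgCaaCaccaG
gamma constant exon 2, chr5:141505393-141505481, plus strand: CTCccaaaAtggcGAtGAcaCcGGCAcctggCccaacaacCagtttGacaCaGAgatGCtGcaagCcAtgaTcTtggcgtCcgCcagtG
Constant exon 1 has 59 bases in both clusters and matched at 39 positions (66.1%), whereas constant exon 2 has 89 bases in both and matched at 29 (32.6%). The third constant exon spans 2721 bases in alpha and 2029 bases in gamma. These exons belong to 15 alpha and to all 22 gamma genes, so a read lying wholly within them fits every one of those genes.

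The deposited counts gave each such read to every gene of its cluster. Over all libraries the 15 alpha genes with constant exons had totals between 16925 and 20267 reads and the 22 gamma genes between 88889 and 125770. The lowest count in each library, summed over libraries, made up a median of 96.2% of the reads of an alpha gene and 99.5% of those of a gamma gene. Copies of the same reads made up 86.8% of all reads listed for the alpha cluster and 91.4% for the gamma cluster. With shared reads counted once, they were 16918 of 36059 reads in alpha and 88856 of 175720 reads in gamma. PCDHA14, whose 1 listed exon lies wholly inside PCDHA10, carries no constant exon and had 379 reads. Beta genes share no exon with one another, so their counts stand as listed.

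For this reason 2 quantities are given for alpha and gamma. The shared level is the count of the lowest gene of the cluster in a library, which stands for the constant exons. In alpha the shared level did not always move with the summed own reads. PCDHA2 and PCDHGA3, which were lowest in 15 and 13 of the 21 libraries, stand for it in the tests. The own reads of a gene are its count minus that lowest count. They leave out reads that lie only in constant exons, and they are too low by as much as the lowest gene was itself transcribed. If reads running from a gene's own exon into a constant exon were given to every gene, they are left out too. This split was chosen after the counts had been seen.

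Promoters are shown for 7 genes named in the results below, because each cluster had a 9-base word of its own near the start. RefSeq windows of 300 bases on GRCh38.p14, from 250 before to 50 after the start, were matched by symbol for 47 of the 54 genes. Capitals mark the words GATGTCGCT, GGTGGCGCT and GCGCCGCTG wherever one occurs on either strand. They are the words found in the most alpha, beta and gamma genes, they were picked from these same windows, and all contain CGCT, the core of the conserved element known from these promoters.
PCDHA6, chr5:140827710-140828009, plus strand: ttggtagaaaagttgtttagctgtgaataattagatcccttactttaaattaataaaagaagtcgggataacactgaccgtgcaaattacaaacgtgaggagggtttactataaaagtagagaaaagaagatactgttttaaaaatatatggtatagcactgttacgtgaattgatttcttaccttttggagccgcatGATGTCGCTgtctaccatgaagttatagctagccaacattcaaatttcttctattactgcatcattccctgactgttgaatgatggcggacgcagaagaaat
PCDHA4, chr5:140806818-140807117, plus strand: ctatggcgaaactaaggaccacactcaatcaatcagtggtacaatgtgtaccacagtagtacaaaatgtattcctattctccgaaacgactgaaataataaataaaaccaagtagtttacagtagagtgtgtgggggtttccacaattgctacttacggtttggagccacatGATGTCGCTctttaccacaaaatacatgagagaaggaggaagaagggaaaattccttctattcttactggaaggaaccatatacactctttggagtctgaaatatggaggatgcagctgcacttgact
PCDHB2, chr5:141094365-141094664, plus strand: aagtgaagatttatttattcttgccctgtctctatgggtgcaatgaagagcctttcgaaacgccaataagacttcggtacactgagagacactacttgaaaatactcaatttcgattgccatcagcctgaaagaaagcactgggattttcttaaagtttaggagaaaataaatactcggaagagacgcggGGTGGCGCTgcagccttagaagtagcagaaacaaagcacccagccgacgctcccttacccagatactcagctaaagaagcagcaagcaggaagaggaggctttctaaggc
PCDHB1, chr5:141051124-141051423, plus strand: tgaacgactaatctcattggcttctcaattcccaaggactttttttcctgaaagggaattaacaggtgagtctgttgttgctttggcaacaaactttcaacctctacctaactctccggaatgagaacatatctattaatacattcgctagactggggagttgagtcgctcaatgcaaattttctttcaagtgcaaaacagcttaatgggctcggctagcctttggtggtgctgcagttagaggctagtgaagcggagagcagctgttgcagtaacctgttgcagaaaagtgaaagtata
PCDHGB6, chr5:141407771-141408070, plus strand: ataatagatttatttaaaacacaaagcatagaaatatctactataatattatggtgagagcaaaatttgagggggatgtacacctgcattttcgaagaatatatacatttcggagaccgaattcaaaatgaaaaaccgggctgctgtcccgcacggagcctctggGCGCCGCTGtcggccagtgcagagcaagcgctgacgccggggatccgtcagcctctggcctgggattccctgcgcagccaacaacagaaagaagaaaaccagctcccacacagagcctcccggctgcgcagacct
PCDHGC3, chr5:141475716-141476015, plus strand: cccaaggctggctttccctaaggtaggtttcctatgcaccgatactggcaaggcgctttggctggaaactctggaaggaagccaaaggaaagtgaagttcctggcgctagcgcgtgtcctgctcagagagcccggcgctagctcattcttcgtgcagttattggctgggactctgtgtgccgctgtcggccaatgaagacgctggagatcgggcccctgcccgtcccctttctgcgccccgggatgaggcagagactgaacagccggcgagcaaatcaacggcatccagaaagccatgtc
PCDHGC4, chr5:141484780-141485079, plus strand: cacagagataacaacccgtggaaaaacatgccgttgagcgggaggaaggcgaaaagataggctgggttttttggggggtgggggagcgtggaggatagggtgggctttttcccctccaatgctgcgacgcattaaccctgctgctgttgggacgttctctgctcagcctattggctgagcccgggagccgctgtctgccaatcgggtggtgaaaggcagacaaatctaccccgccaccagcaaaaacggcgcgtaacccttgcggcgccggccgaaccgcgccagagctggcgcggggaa
GATGTCGCT was found in 9 of 13 alpha genes, in no beta or gamma gene, and in 0.11% of all 35116 promoter windows on either strand. GGTGGCGCT was found in 13 of 14 beta genes, the exception being PCDHB1, in no alpha or gamma gene, and in 0.5% of all windows. GCGCCGCTG was found in 10 of 20 gamma genes, in no alpha or beta gene, and in 1.28% of all windows. The windows of PCDHGC3, PCDHGC4, PCDHAC1 and PCDHAC2 held none of these words, nor did that of the variable gene PCDHGB7. PCDHGC5 had no window. CGCT alone was present in 46 of 47 genes, all but PCDHA9, but also in 70.01% of all windows. The word began 85 bases before the start of PCDHGB6 in the window shown, 60 before that of PCDHB2 and 52 before that of PCDHA6. A match is a description of the letters in these windows.

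Levels can be compared between genes only per length, and are given here as own reads in CPM per kilobase of exon that no other member shares, averaged over the 21 libraries. PCDHGB6 had the highest mean over all libraries, at 17.4 CPM per kilobase (range over libraries 11.3 to 25.8). Next came PCDHB2 with 13.6 (10.7 to 16.4), PCDHGC3 with 13.5 (7.14 to 27.9), PCDHGC4 with 8.35 (5.05 to 19.9) and PCDHGB7 with 5.82 (3.67 to 9.94). In Dox at 24 h PCDHGC3 was above PCDHGB6, at group means of 26.1 and 24.5. The ranges of these 5 genes overlapped from one gene to the next, while PCDHGB7 lay wholly above PCDHGA10 (2.02) and PCDHB2 wholly above PCDHB10 (5.42). The leading alpha genes were PCDHA12 at 2.55, PCDHA6 at 2.25 and PCDHA11 at 1.99, and their ranges overlapped.

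**Figure D1:**
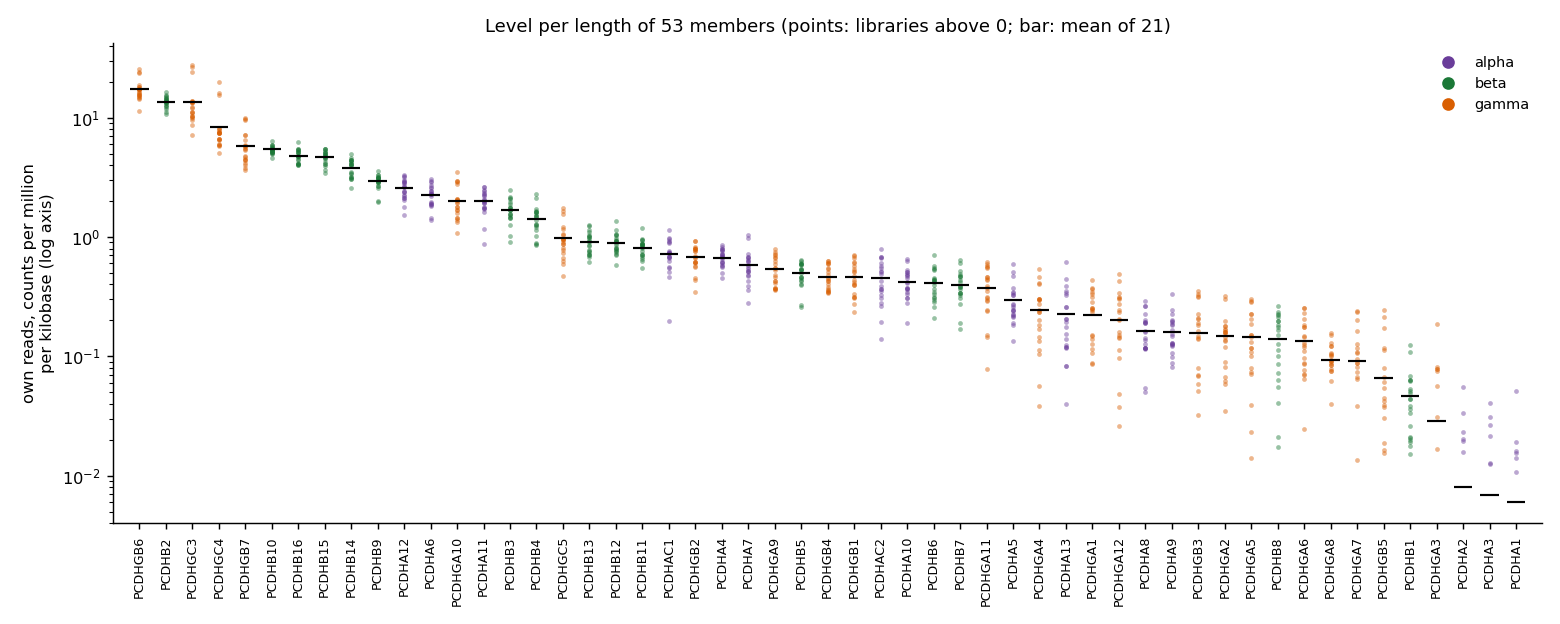
Own reads in CPM per kilobase of unshared exon (log axis) for the 53 members that have such exon, ordered by mean; each point is 1 library, the bar is the mean of the 21 libraries, and colour gives the cluster. A few gamma genes and PCDHB2 lead, from PCDHGB6 at 17.4 to PCDHGB7 at 5.82.

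A few genes held most of the own reads of the gamma and alpha clusters. In gamma, PCDHGB6, PCDHGC3, PCDHGC4, PCDHGB7 and PCDHGA10 held 91.9% of all own reads, with PCDHGB6 alone at 42.5%. In alpha, PCDHA6, PCDHA4, PCDHA11 and PCDHA12 held 66.8%. These shares are not per length, by which PCDHA4 (0.673 CPM per kilobase) was below PCDHAC1 (0.722). PCDHB2 had 33.8% of the beta reads. Own reads averaged at least 1 CPM in 10 of 16 alpha, 14 of 16 beta and 11 of 22 gamma genes, and apart from PCDHA14 and PCDHB1 only these are named for changes in own reads.

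The gamma cluster as a whole was higher 12 h after the drug had been withdrawn. The shared level was 172, 176 and 178 CPM in the NoDox libraries at 24 h and 314, 316 and 299.7 CPM in the Dox libraries. All 3 Dox libraries lay above all NoDox libraries. PCDHGA3, which stands for the shared reads and had 33 own reads in all, rose by 0.82 ± 0.06 on the log2 scale (SE, n = 3 against 3; edgeR quasi-likelihood test, Benjamini-Hochberg adjusted p = 1.6e-12). As counted, all 22 gamma genes were called higher, with a median of 0.82, where 17% of all genes tested were called higher. The rule for named genes took PCDHGC3 (0.91 ± 0.06), PCDHGC4 (0.87 ± 0.06), PCDHGB5, PCDHGA5 and PCDHGB7 for the largest increases as counted. PCDHGB5 and PCDHGA5 had 78 and 247 own reads over all libraries, so their values (0.82 ± 0.06 and 0.82 ± 0.06) are nearly those of the shared reads. The 22 calls are thus largely 1 set of reads counted 22 times.

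**Figure D2:**
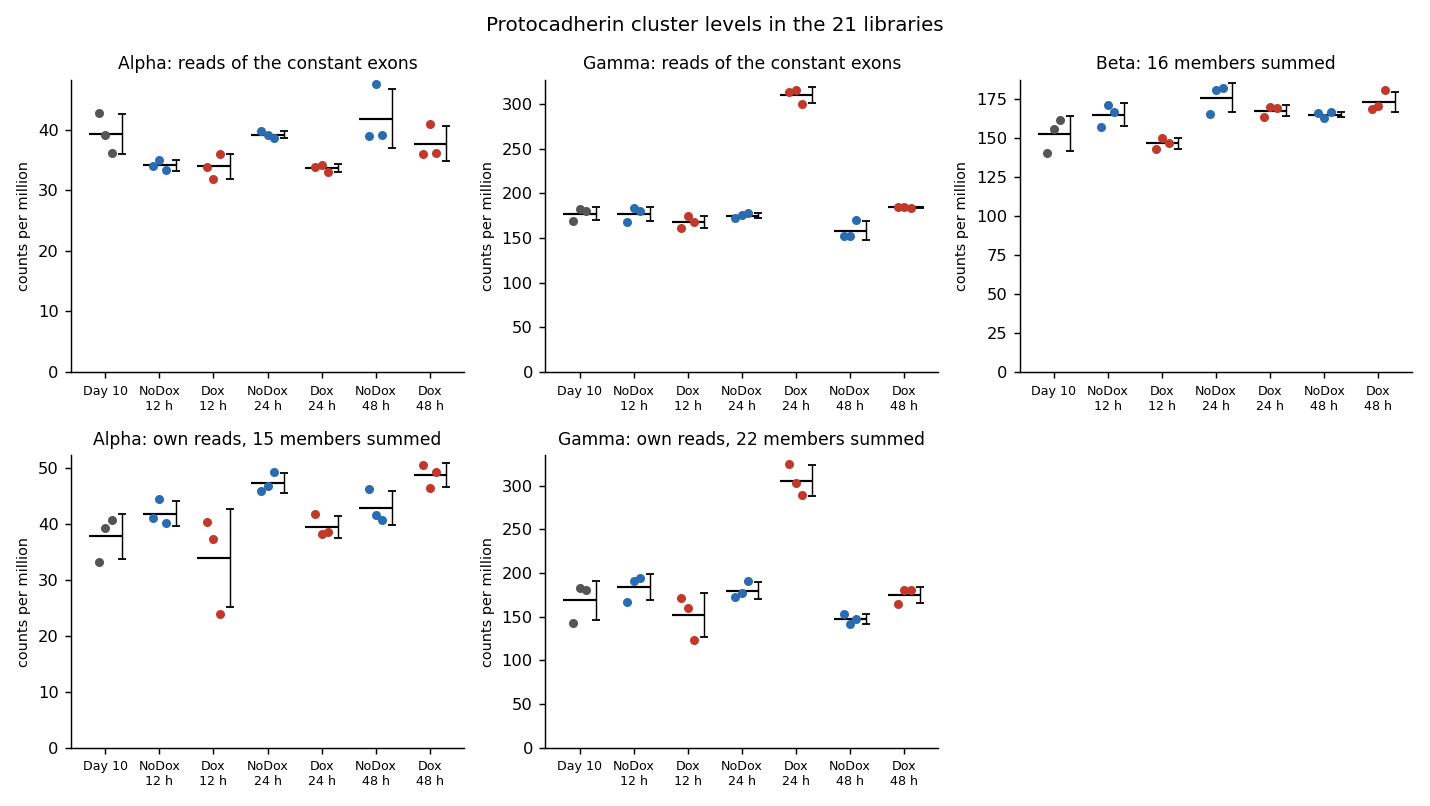
Level in CPM (TMM-scaled) of the constant-exon reads of alpha and gamma, of the own reads summed over their genes, and of the beta genes summed, in each of the 7 groups; points are the 3 libraries, the bar is their mean and the error bar the SD. Gamma shared reads averaged 309.8 in Dox at 24 h and 158 to 184 in the other 6 groups.

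Own reads showed unequal changes among the gamma genes, with the highest values in 2 C-types. PCDHGC3, a C-type known to act in WNT signalling and dendrite growth, had 33.3, 35.5 and 33.6 CPM of own reads in NoDox at 24 h and 90.6, 85.8 and 77.8 CPM in Dox. Every Dox library lay far above every NoDox library, a change of 1.31 ± 0.14 (log2, SE; edgeR, adjusted p = 4.4e-07).

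PCDHGC4, the C-type known to be needed for the survival of cortical interneurons, had 20.9, 20.9 and 21.1 CPM of own reads in NoDox and 55.7, 45.1 and 42.8 CPM in Dox at 24 h. No NoDox library came near any Dox library, and the change was 1.19 ± 0.09 (adjusted p = 7.44e-12, edgeR). PCDHGC5, the last gene of the cluster, was far lower, at 2.74, 2.98 and 3.42 CPM in NoDox and 5.03, 4.70 and 4.48 CPM in Dox. It rose by 0.65 ± 0.20 (adjusted p = 0.0143, edgeR), and this call was lost without replicate 1 of Dox (adjusted p = 0.052) or replicate 1 of NoDox (0.0738) at 24 h.

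Among the variable genes 3 rose. PCDHGB7 had 13.1, 15.4 and 17.9 CPM in NoDox and 27.7, 27.1 and 26.9 CPM in Dox at 24 h. PCDHGA10 had 8.02, 9.02 and 9.18 CPM against 13.1, 15.5 and 13.2 CPM. PCDHGB6 had 79.9, 82.7 and 86.2 CPM against 118, 110.1 and 109.6 CPM. In each of these 3 genes the Dox libraries lay above the NoDox libraries. The changes were 0.82 ± 0.13 for PCDHGB7 (adjusted p = 2.51e-05), 0.68 ± 0.15 for PCDHGA10 (0.000632) and 0.44 ± 0.09 for PCDHGB6 (0.000187, all edgeR). Of the 20 gamma genes whose own reads could be tested, 6 were called higher and none lower, against 16.9% of all genes called higher and 16.8% called lower in that fit. Other gamma genes of at least 1 CPM did not pass, with values from -0.44 for PCDHGB4 to 0.44 for PCDHGA9.

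The makeup of the cluster shifted as well. The 3 gamma C-types held 32.4% ± 1.65 of gamma own reads in NoDox and 44.9% ± 1.69 in Dox at 24 h (SD, n = 3), and PCDHGB6 held 46.1% ± 0.736 and 36.9% ± 0.873. In both shares the Dox libraries lay apart from the NoDox libraries. Of the 3 C-types, PCDHGC3 went from 19.0% to 27.7% and PCDHGC4 from 11.7% to 15.6% at 24 h. PCDHGC5 went the other way, from 1.69% to 1.55%. The C-type share also lay apart at 12 h (33.3% in NoDox and 34.9% in Dox) and at 48 h (33.0% and 38.4%), and it was 38.0% on day 10. The log2 ratio of PCDHGC3 to PCDHGB6 own reads was -1.28 ± 0.07 in NoDox and -0.41 ± 0.07 in Dox (SD, n = 3), a difference of 0.87 for which an exact two-sided permutation test gave p = 0.1, the smallest value 3 against 3 libraries allow. At 48 h the same ratio was -1.19 ± 0.10 and -0.83 ± 0.06, a difference of 0.37 (exact permutation p = 0.1). At 12 h it was -0.93 ± 0.04 and -0.98 ± 0.16, a difference of -0.05 (exact permutation p = 1.0). The 3 times were tested separately without adjustment, and the design cannot reach 0.05 for any of them. The pair joins the largest and the smallest own-read change among the 6 gamma genes called at 24 h.

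**Figure D3:**
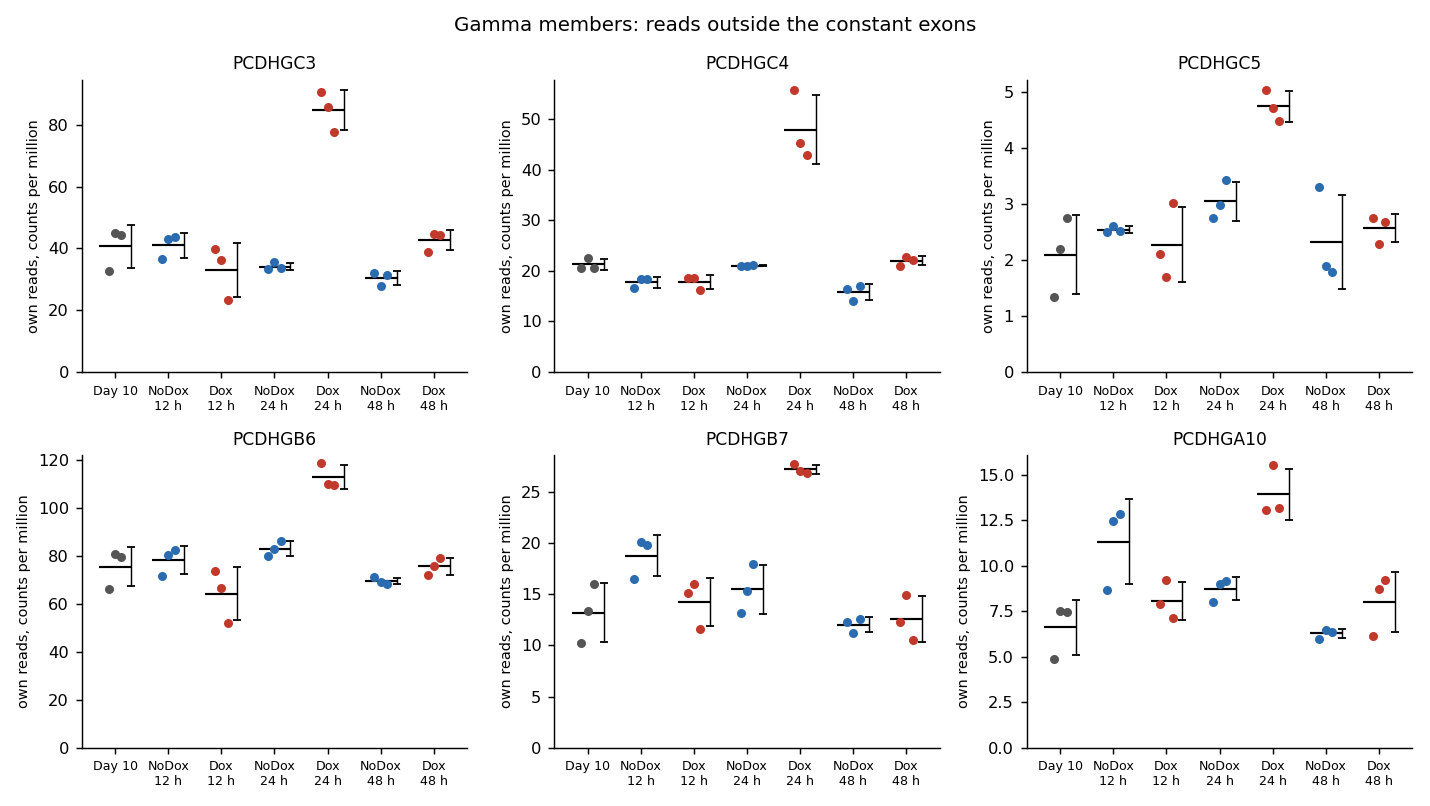
Own reads in CPM of 6 gamma genes in the 7 groups; points are the 3 libraries, the bar is their mean and the error bar the SD. PCDHGC3 and PCDHGC4 reach 77.8 to 90.6 and 42.8 to 55.7 in Dox at 24 h, above all other libraries.

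Markers of other cells moved at the same time. Of 5 neural crest and mesenchyme markers, COL1A1 (426 to 1137 CPM) and SOX10 (7.19 to 26.7) were higher and PDGFRA (2.86 to 1.04) lower in Dox at 24 h, while FOXD3 and TWIST1 averaged at most 0.0960 CPM in any group. The summed level of that list, 401 to 458 CPM in NoDox and 914 to 1331 in Dox, is almost wholly COL1A1. Of 7 neuronal markers 5 were lower and 1 higher, with a sum of 1332 to 1618 CPM against 986 to 1161. Of 4 glial markers 3 were higher and 1 lower, with a sum of 577 to 609 CPM against 708.5 to 848. At 24 h 17% of all genes were called higher and 16.9% lower. The part of these cells in the gamma rise was not tested.

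At 48 h the difference between Dox and NoDox was smaller. Gamma shared reads were 152, 152 and 170.4 CPM in NoDox and 185, 184 and 184 CPM in Dox, and the groups did not overlap. Their means were 177.4 CPM on day 10, 158.1 in NoDox and 184.5 in Dox. PCDHGA3 was higher in Dox than in NoDox by 0.22 ± 0.06 (adjusted p = 0.00696, edgeR). As counted all 22 gamma genes were called higher, against 9.23% of all genes. Set against day 10, none of the 22 was called in Dox at 48 h as counted (median 0.06), where 28.2% of all genes were called higher. The call for PCDHGA3 was lost with library totals only (0.15, adjusted p = 0.0892) and without replicate 2 of NoDox at 48 h (0.19, 0.0506), which left 12 members called, while library totals left 2. In own reads only PCDHGC4 and PCDHGC3 of the gamma genes passed, 2 of 20, against 9.07% of all genes. PCDHGC4 had 16.5, 14.1 and 16.9 CPM in NoDox and 20.99, 22.8 and 22.1 CPM in Dox, without overlap, a change of 0.47 ± 0.10 (adjusted p = 0.000973, edgeR) that held in all 9 alternatives run on it. PCDHGC3 had 32.02, 27.99 and 31.3 CPM against 38.96, 44.7 and 44.3 CPM, also without overlap, a change of 0.49 ± 0.15 (0.0286). Its call was lost in 5 of 9 alternatives, namely library totals (0.0712) and leaving out replicate 2 or 3 of either group (0.062 to 0.121). On day 10 PCDHGC4 and PCDHGC3 averaged 21.25 and 40.7 CPM of own reads. PCDHGB6 did not pass (69.5 and 75.6 CPM, 0.12 ± 0.09), nor did PCDHGC5 (0.14 ± 0.24).

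At 12 h, while GSX2 was high, no gamma gene was called as counted. Shared reads were 168, 183 and 180.3 CPM in NoDox and 162, 175 and 168 CPM in Dox, overlapping groups. By edgeR 39.7% of all genes were called in either direction, and 1 of the 22 gamma genes had an unadjusted p below 0.05. The summed gamma level was 0.944 times that in NoDox, and 1.069 times with library totals, which shift every gene by 0.18 on the log2 scale at 12 h. In own reads PCDHGB6 (-0.28 ± 0.09, adjusted p = 0.0125), PCDHGA10 (-0.49 ± 0.15, 0.0123) and PCDHGB7 (-0.39 ± 0.14, 0.0266) were lower, 3 of 20, against 19.9% of all genes called lower. These 3 calls were lost with library totals only (-0.10, -0.31 and -0.21). Those of PCDHGB6 and PCDHGB7 were also lost without replicate 3 of Dox (-0.16 and -0.28), all 3 without replicate 3 of NoDox, and those of PCDHGA10 and PCDHGB7 without its replicate 2. Replicate 3 of Dox had the lowest ratio of gamma own reads to shared reads, 0.735, where the other 20 libraries ranged from 0.84 to 1.08. PCDHGB6 was at 73.8, 66.7 and 52.1 CPM in these Dox libraries, the third being replicate 3. The part of this library's read makeup in the calls beyond leaving it out was not tested.

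The Dox effect itself differed between the times. For gamma shared reads (PCDHGA3) it was larger at 24 h than at 12 h by 0.90 ± 0.08 (adjusted p = 5.74e-10), and at 48 h it differed from 24 h by -0.60 ± 0.08 (2.33e-06, edgeR). In own reads the difference between 24 and 12 h was 1.61 ± 0.20 for PCDHGC3, 1.21 ± 0.19 for PCDHGB7, 1.19 ± 0.13 for PCDHGC4, 1.16 ± 0.21 for PCDHGA10 and 0.72 ± 0.12 for PCDHGB6. All 5 passed in each of the 15 alternatives run on them. PCDHGC3 (-0.82 ± 0.21), PCDHGB7 (-0.75 ± 0.20) and PCDHGC4 (-0.72 ± 0.13) were the gamma genes that passed in own reads for the difference between 48 and 24 h. As counted, 22 gamma genes passed in each of these comparisons of times, where 16.1% of all genes were called higher in the first and 13.1% lower in the second. In the fit of own reads these shares were 15.9% and 13%. Between 48 and 12 h 24 members passed as counted, all higher, against 17.7% of all genes, while library totals gave 1 higher and 16 lower. In own reads 11 of 49 members passed, all higher, against 17.6%.

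**Figure D4:**
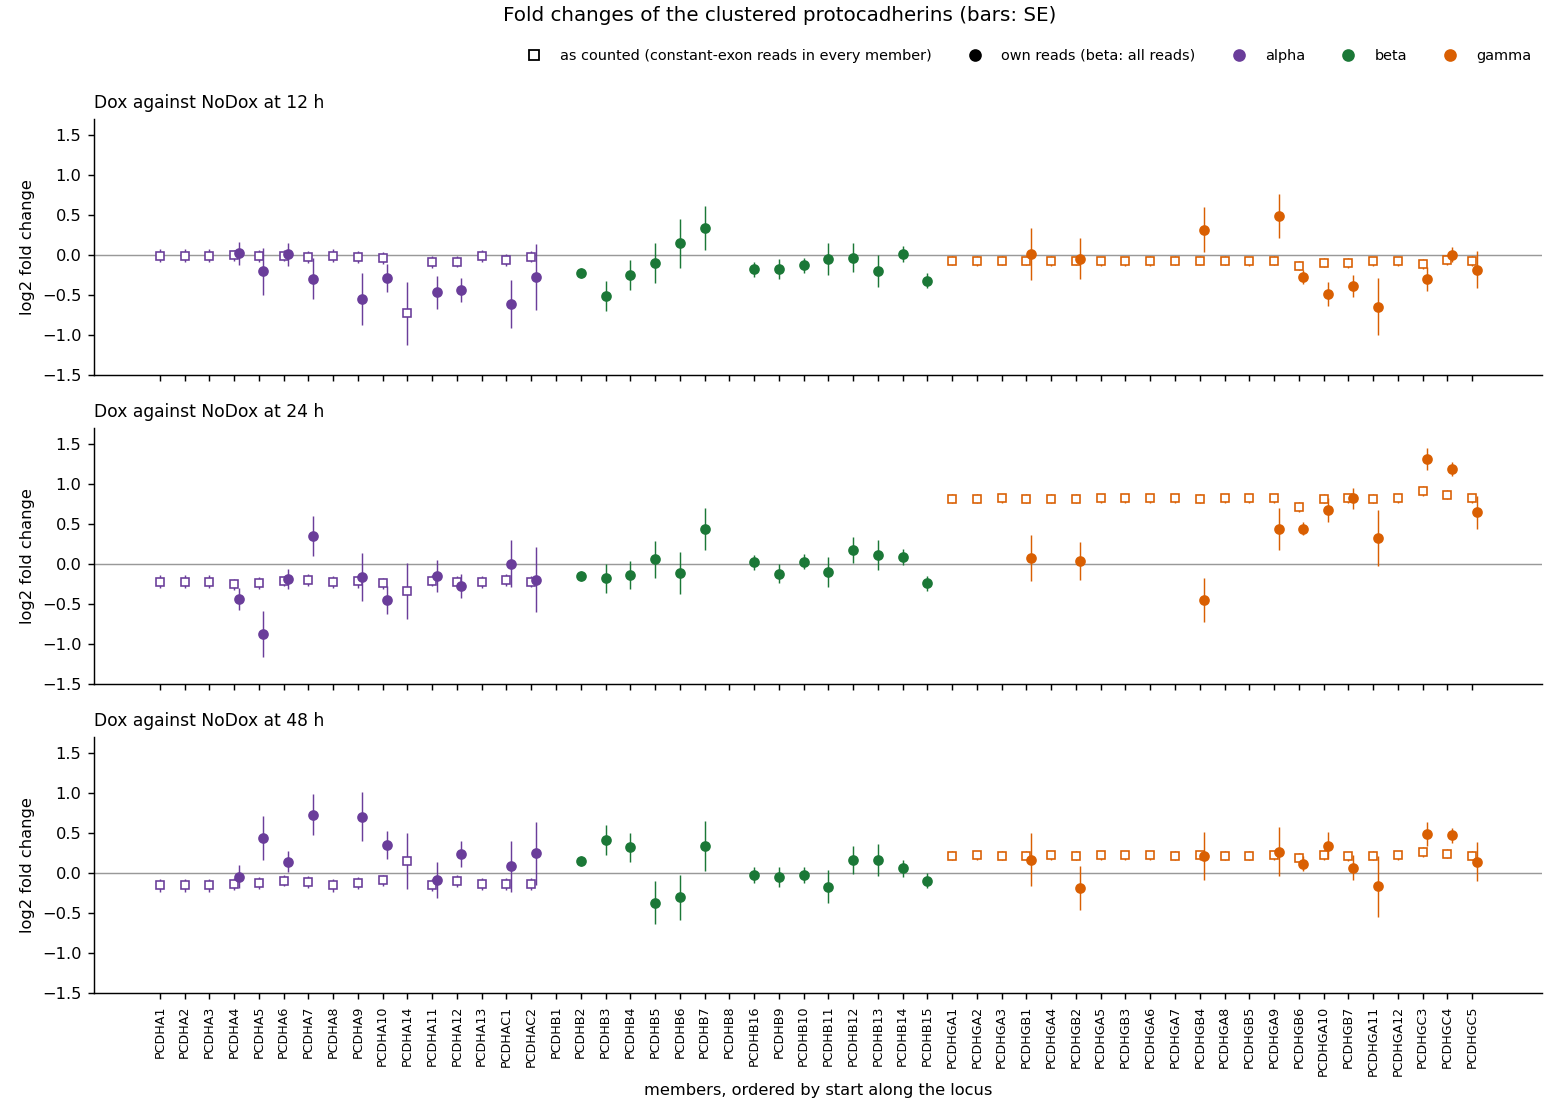
Log2 fold change with its SE (bars) of Dox against NoDox at 12, 24 and 48 h for each gene in the order of the locus, as counted (open squares) and in own reads (filled circles, genes averaging at least 1 CPM of own reads; beta circles hold all reads). As counted, gamma genes lie between 0.71 and 0.91 at 24 h, while own reads spread from -0.44 for PCDHGB4 to 1.31 for PCDHGC3.

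In the alpha cluster the shared level was lower at 24 h, by little. Shared alpha reads were 39.8, 39.2 and 38.6 CPM in NoDox and 33.95, 34.3 and 32.96 CPM in Dox at 24 h, without overlap. PCDHA2, which stands for them, fell by 0.22 on the log2 scale (SE 0.08, adjusted p = 0.0302, edgeR). As counted, 15 of 16 alpha genes were called lower at a median of -0.22, against 16.9% of all genes, and this was mostly 1 set of reads. The call for PCDHA2 was lost when any 1 of the 6 libraries was left out (adjusted p 0.052 to 0.0957), which left 3 to 10 of 16 members called lower. At 12 h (-0.01 ± 0.08) and 48 h (-0.15 ± 0.08) PCDHA2 did not pass. Summed alpha own reads averaged 41.9 CPM in NoDox and 33.9 CPM in Dox at 12 h, overlapping groups. They averaged 47.3 and 39.5 CPM at 24 h and 42.9 and 48.8 CPM at 48 h, without overlap at either time. Shared alpha reads at 48 h went the other way, at 41.9 and 37.7 CPM in overlapping groups.

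In own reads 3 of 13 alpha genes fell at 24 h, against 16.8% of all genes called lower in that fit. PCDHA4 had 8.36, 8.35 and 9.04 CPM in NoDox and 6.39, 6.09 and 6.51 CPM in Dox, a change of -0.44 ± 0.14 (adjusted p = 0.0147). PCDHA10 had 4.66, 5.29 and 5.25 CPM against 3.83, 3.44 and 3.84 CPM (-0.45 ± 0.17, 0.0453). PCDHA5 had 1.57, 1.39 and 1.46 CPM against 0.948, 0.566 and 0.904 CPM (-0.87 ± 0.29, 0.0203, all edgeR). In all 3 genes the NoDox libraries lay above the Dox libraries. The call for PCDHA10 was lost without any 1 of the 6 libraries (0.0519 to 0.144), that for PCDHA4 without replicate 2 of Dox (0.0558) or replicate 3 of NoDox (0.0537), and that for PCDHA5 without replicate 2 of Dox (0.121) or replicate 1 of NoDox (0.0719). PCDHA6 (8.00 and 7.04 CPM, -0.19 ± 0.13), PCDHA11 (7.80 and 7.02 CPM, -0.15 ± 0.20) and PCDHA12 (8.05 and 6.68 CPM, -0.27 ± 0.15) did not pass.

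The alpha C-types did not pass at 24 h. PCDHAC1 had 2.30, 3.15 and 4.06 CPM of own reads in NoDox and 3.87, 2.83 and 2.62 CPM in Dox, a change of 0.00 ± 0.29 (adjusted p = 0.995, edgeR). PCDHAC2, known to be on in serotonergic neurons, had 1.17, 1.01 and 2.01 CPM against 1.28, 1.22 and 1.08 CPM (-0.20 ± 0.40, adjusted p = 0.757). The groups overlapped in both genes, and whether their changes differed from those of the gamma C-types was not tested.

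At each of the other times 1 of 13 alpha genes passed in own reads, lower at 12 h and higher at 48 h, against 19.9% and 9.07% of all genes called in those directions. PCDHA12 had 7.54, 8.45 and 7.83 CPM in NoDox and 7.62, 5.66 and 3.98 CPM in Dox at 12 h (-0.44 ± 0.15, adjusted p = 0.0203, edgeR), overlapping groups. That call was lost without replicate 3 of Dox (-0.26, 0.148), without replicate 2 of either group (0.061 and 0.0777) and with library totals only (-0.26, 0.158). PCDHA7 had 1.86, 0.817 and 1.99 CPM in NoDox and 2.85, 3.02 and 1.82 CPM in Dox at 48 h (0.73 ± 0.26, 0.0469). Its call was lost without replicate 2 of NoDox (0.42, 0.299), without replicate 1 or 2 of Dox (0.157 and 0.175), with library totals (0.0741) and with the replicate number as a block (0.0555). The Dox effect on PCDHA5 and PCDHA10 was higher at 48 h than at 24 h by 1.31 ± 0.40 and 0.80 ± 0.24 (adjusted p = 0.0159 and 0.0153, edgeR). The call for PCDHA5 was lost in 3 of 15 alternatives and that for PCDHA10 in 1, without replicate 3 of NoDox at 48 h (0.0574). For PCDHA5 it was that library (0.0523), replicate 2 of Dox at 24 h (0.0592) or replicate 1 of Dox at 48 h (0.0654).

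Of 16 beta genes 1 was called at 24 h, lower, against 16.9% of all genes called lower and 17% higher. Their summed level was 176 ± 9.18 CPM in NoDox and 167 ± 3.51 CPM in Dox (SD, n = 3), overlapping groups. This was PCDHB15, with 17.8, 19.7 and 19.6 CPM in NoDox and 16.9, 16.1 and 15.2 CPM in Dox (-0.24 ± 0.09, adjusted p = 0.0402, edgeR). That call was lost without replicate 2 or 3 of either group (adjusted p 0.0936 to 0.154) and with no low count filter (0.113). PCDHB2, the highest beta gene, had 55.05, 60.02 and 60.5 CPM against 51.1, 52.8 and 54.3 CPM and did not pass (-0.15 ± 0.06, 0.0653). PCDHB10 (18.2 and 18.5 CPM, 0.03 ± 0.09) and PCDHB16 (18.6 and 18.9 CPM, 0.02 ± 0.09) did not pass either.

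At 12 h 3 of 16 beta genes fell, against 19.9% of all genes called lower. PCDHB2 had 50.1, 56.8 and 54.3 CPM in NoDox and 45.9, 48.5 and 43.7 CPM in Dox (-0.22 ± 0.06, adjusted p = 0.00595, edgeR). PCDHB15 had 14.6, 18.5 and 16.4 CPM against 13.02, 14.1 and 12.3 CPM (-0.32 ± 0.09, 0.00657). PCDHB3 had 5.86, 7.17 and 4.88 CPM against 4.83, 4.20 and 3.42 CPM (-0.51 ± 0.19, 0.0312). NoDox libraries lay above Dox libraries in all 3 genes, narrowly so in PCDHB3. With library totals only, none of the 3 passed (-0.04, -0.14 and -0.33), and without replicate 2 of NoDox PCDHB15 (-0.23, 0.0744) and PCDHB3 (-0.36, 0.196) did not. PCDHB3 was also lost without replicate 1 of NoDox (0.0563) and without replicate 2 (0.0636) or 3 (0.106) of Dox.

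At 48 h no beta gene was called by edgeR, and 2 of 16 had an unadjusted p below 0.05, where 8.94% of all genes were called lower (8.91% in the fit of own reads). PCDHB2 was then at 56.9, 58.3 and 57.96 CPM in NoDox and 61.7, 63.2 and 67.4 CPM in Dox (0.15 ± 0.06, adjusted p = 0.1). Its Dox effect at 48 h was higher than that at 12 h by 0.37 ± 0.09 (0.00176) and than that at 24 h by 0.30 ± 0.09 (0.0129). With library totals only, neither difference passed (0.12 and 0.24), and the difference from 24 h was also lost without replicate 3 of Dox at 48 h (0.0681) and with no low count filter (0.0613). The difference between 48 and 12 h also passed for PCDHB3 (0.92 ± 0.27, 0.00779).

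**Figure D5:**
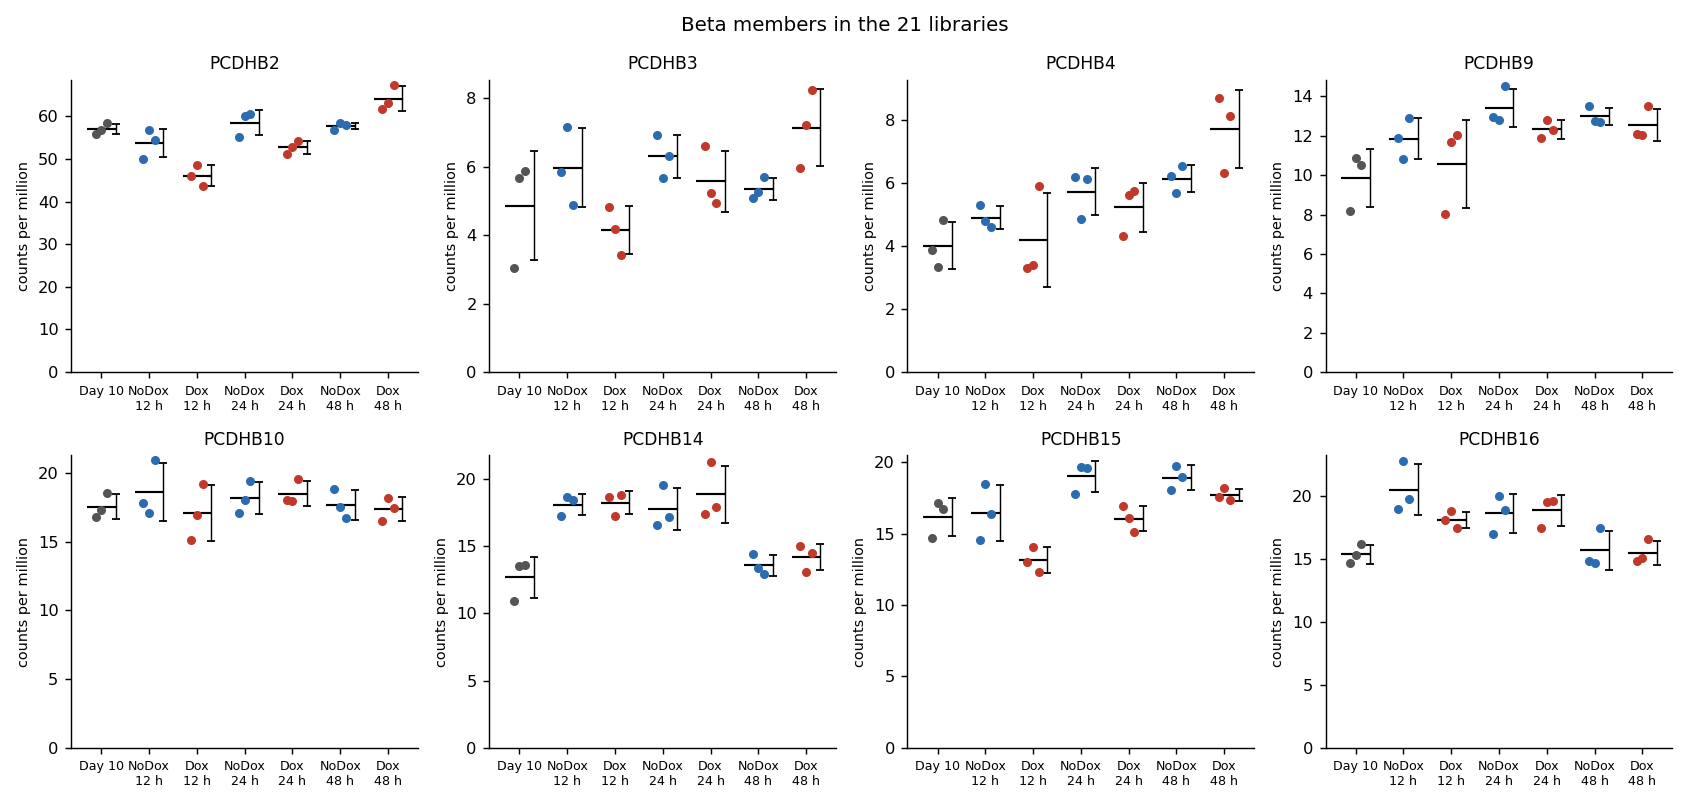
Level in CPM of 8 beta genes in the 7 groups; points are the 3 libraries, the bar is their mean and the error bar the SD. PCDHB14 lies at 10.9 to 13.6 on day 10 and at 16.6 to 21.2 in the 12 and 24 h groups.

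Without doxycycline some variable genes rose from day 10. PCDHB14 had 10.9, 13.5 and 13.6 CPM on day 10, 17.2, 18.6 and 18.4 CPM at 12 h and 16.6, 19.5 and 17.2 CPM at 24 h in NoDox, without overlap, and 14.4, 13.4 and 12.9 CPM at 48 h. It rose by 0.50 ± 0.10 at 12 h (adjusted p = 0.000335) and 0.47 ± 0.10 at 24 h (0.00134, edgeR), in all 14 alternatives at each time. PCDHB16 rose at 12 h, from 14.7, 15.3 and 16.2 CPM to 18.9, 22.8 and 19.8 CPM (0.41 ± 0.09, 0.00128), and passed at 24 h (0.27 ± 0.09, 0.0474), where 7 of 14 alternatives lost the call. PCDHB9 was higher at 24 h (0.43 ± 0.12, 0.0169) and 48 h (0.38 ± 0.13, 0.0171), both lost without replicate 1 of day 10 (0.0974 and 0.0883) and in all in 2 and 3 of 14 alternatives. PCDHB4 was higher at 48 h (0.61 ± 0.19, 0.0123), lost without replicate 2 of day 10 (0.0867). The beta genes called were 2 of 16 at 12 h, 3 at 24 h and 2 at 48 h, all higher, against 15.5%, 8.84% and 21.4% of all genes called higher. No member was called lower at 24 h, against 8.47% of all genes.

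In own reads, PCDHGA10 rose from 4.86, 7.53 and 7.47 CPM on day 10 to 8.66, 12.5 and 12.8 CPM in NoDox at 12 h (0.75 ± 0.16, adjusted p = 0.000648, edgeR). PCDHGA11 rose by 1.61 ± 0.41 (0.00355) and PCDHGB7 by 0.49 ± 0.14 (0.0101), the latter lost without replicate 1 of day 10 (0.36, 0.0544). PCDHGA11 had only 4, 20 and 12 own reads in the day 10 libraries. Of 20 gamma genes 6 were called higher and 2 lower at 12 h, against 15.6% and 16.3% of all genes in that fit. The 20 include genes of few reads, since 11 of the 22 gamma genes averaged under 1 CPM of own reads. Over all 3 clusters 6 of 49 members were called higher and none lower at 24 h by edgeR (16 had an unadjusted p below 0.05), against 8.85% and 8.46%, and 5 higher and 2 lower at 48 h, against 21.4% and 20.1%. PCDHA12 was higher than on day 10 at 12 h (0.62 ± 0.16, 0.00322) and 24 h (0.64 ± 0.16, 0.00415). PCDHA10 was higher at 12 h (0.59 ± 0.19, 0.0172), 24 h (0.80 ± 0.18, 0.00258) and 48 h (0.72 ± 0.19, 0.00304). At 12 h its call was lost without replicate 1 of day 10 (0.43, 0.0938) or replicate 3 of NoDox (0.51, 0.0796). Its own reads include those of PCDHA14, which averages under 1 CPM and was called at 24 and 48 h (1.24 ± 0.40 and 1.37 ± 0.41). Replicate 1 of day 10 had ratios of own to shared reads of 0.778 in alpha and 0.84 in gamma. In NoDox at 12 h these ratios were 1.21 to 1.27 and 0.994 to 1.08. The part of read makeup in these calls beyond leaving that library out was not tested.

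The 2 main gamma C-types were lower in NoDox than on day 10 at some of the times. PCDHGC4 own reads averaged 21.25 CPM on day 10 and 17.7, 20.96 and 15.8 CPM in NoDox at 12, 24 and 48 h. PCDHGC3 averaged 40.7 CPM on day 10 and 41.0, 34.15 and 30.4 CPM in NoDox. At 24 h none of 20 gamma genes was called in own reads, against 8.85% of all genes called higher and 8.46% lower. PCDHGC4 fell by 0.26 at 12 h (SE 0.10, adjusted p = 0.0356), lost without any 1 of 5 libraries (0.0501 to 0.144), and by 0.43 at 48 h (SE 0.10, 0.00081). PCDHGC3 fell by 0.43 at 48 h (SE 0.15, 0.0263, edgeR), lost without replicate 2 or 3 of day 10 or replicate 2 of NoDox (0.0966 to 0.109). As counted, PCDHA4, PCDHA6, PCDHA13 and PCDHAC2 were called lower at 12 h, 4 of 16 alpha genes, and all 22 gamma genes at 48 h (median -0.16), against 16.3% and 20.2% of all genes called lower. The members called lower at 12 h numbered 0 without replicate 1 of day 10, replicate 3 of NoDox or the low count filter, 11 without replicate 3 of day 10, and 1 or 2 without any other library. The members called lower at 48 h numbered 2 without replicate 2 or 3 of day 10 or replicate 1 of NoDox, 1 without replicate 2 of NoDox and 6 with no low count filter.

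Each Dox group was also set against day 10, whose libraries all 6 comparisons with day 10 share. At 24 h gamma shared reads (PCDHGA3) were higher by 0.80 ± 0.06 (adjusted p = 3.22e-12, edgeR). In own reads PCDHGC4 was higher by 1.17 ± 0.09, PCDHGC5 by 1.13 ± 0.22, PCDHGC3 by 1.05 ± 0.14, PCDHGA10 by 1.04 ± 0.16, PCDHGB7 by 1.02 ± 0.14 and PCDHGB6 by 0.57 ± 0.09, and all 6 held in the 9 alternatives run on them. In that fit 18.3% of all genes were called higher. As counted, 25 members were called higher and 11 lower at 24 h, against 18.4% and 19% of all genes, the 11 being alpha genes. Without replicate 1 of day 10 none of the 11 passed by edgeR.

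At 12 h in Dox 4 members were higher than on day 10, namely PCDHB14 (0.51 ± 0.10), PCDHB7 (0.70 ± 0.29), PCDHB16 (0.23 ± 0.09) and PCDHB1, which averaged 0.373 CPM (1.58 ± 0.45), and 15 were lower, with PCDHB2 (-0.31 ± 0.06), PCDHB15 (-0.30 ± 0.09) and PCDHA11 (-0.26 ± 0.07) among them, against 24.5% and 24% of all genes. Among the higher calls PCDHB7 and PCDHB16 were each lost in 6 of 14 alternatives. With library totals only none of the 15 passed, and without replicate 1 or 2 of day 10 or replicate 2 of Dox 7, 5 and 4 did. At 48 h 5 were higher and none lower, against 28.2% and 27% of all genes, namely PCDHA14, PCDHB4 (0.94 ± 0.19), PCDHB3 (0.51 ± 0.19), PCDHB9 (0.33 ± 0.13) and PCDHB2 (0.17 ± 0.06). Of these, PCDHB4 held in all 14 alternatives, PCDHB2, PCDHB9 and PCDHB3 were lost in 7, 6 and 5, and library totals left 2 members called higher and 8 lower.

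At 48 h in Dox several variable alpha genes stood above day 10 in own reads. PCDHA10 had 1.97, 3.57 and 2.92 CPM on day 10 and 6.47, 5.09 and 6.79 CPM in Dox at 48 h, without overlap (1.07 ± 0.19, adjusted p = 1.65e-05, edgeR). PCDHA5 (1.10 ± 0.30, 0.0023), PCDHA7 (1.08 ± 0.27, 0.00114) and PCDHA9 (1.05 ± 0.32, 0.00612) were higher too. PCDHA6 went from 6.41, 7.18 and 7.56 CPM to 9.97, 9.55 and 8.97 CPM (0.42 ± 0.13, 0.00888), a call lost with library totals (0.26, 0.099). In own reads 8 of 13 alpha genes tested were called higher and 1, PCDHA11, lower (-0.53 ± 0.22, 0.0408), against 28.3% and 26.9% of all genes in that fit. The call for PCDHA11 was lost without replicate 2 or 3 of day 10 or replicate 1 or 2 of Dox (-0.58 to -0.35, adjusted p 0.0622 to 0.214). Among the higher calls, PCDHA12 (0.40 ± 0.16) was lost in 4 of 9 alternatives and PCDHA9 without replicate 1 of Dox (0.0558). PCDHA2, for the shared alpha reads, did not pass (-0.06 ± 0.08). The ratio of alpha own reads to shared reads was 0.778, 1.00 and 1.13 on day 10 and 1.41, 1.13 and 1.36 in Dox at 48 h. The part of read makeup in these calls was not tested.

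Over all 7 groups, 49 of the 54 members varied as counted, against 86.4% of all genes tested, and 30 did when replicate 2 of every group was left out. In own reads 32 of the 49 members that could be tested did, against 86.3% of all genes.

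The counts of genes called between Dox and NoDox in the lists that follow stand against 19.8% of all genes higher and 19.9% lower at 12 h, 17% and 16.9% at 24 h, and 9.23% and 8.94% at 48 h. Of 13 genes for CTCF, cohesin and related factors, which bind and loop these promoters, none was higher and 4 were lower at 12 h, none and 5 at 24 h, and 1 and 4 at 48 h (medians -0.07, -0.13 and -0.13, beside 0.01, 0.00 and 0.01 over all genes). CTCF itself was 109 and 100.3 CPM at 24 h and did not pass (-0.12, adjusted p = 0.074, edgeR). The cohesin subunit SMC1A (-0.30), the cohesin regulator PDS5B (-0.27) and the loader subunit MAU2 (-0.26) fell at 24 h, and WAPL, which unloads cohesin, fell at 48 h (-0.44). Of 17 genes for DNA methylation and repressive chromatin, 4 were higher and 7 lower at 12 h, 3 and 4 at 24 h, and 3 and 1 at 48 h. UHRF1, which guides the maintenance methylase, went from 61.1 to 78.1 CPM at 24 h (0.35, adjusted p = 0.00245, edgeR), and TET1, a demethylating enzyme, from 149 to 81.2 at 12 h (-0.87, 2.44e-06). SMCHD1, a known repressor of these clusters, was lower at 12 and 24 h (-0.17 at each, adjusted p = 0.0399 and 0.0397, edgeR).

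Of 25 partners and processing enzymes, 3 were higher and 6 lower at 12 h, 5 and 4 at 24 h, and 3 and 2 at 48 h. WASF1, of the actin-regulating WAVE complex, went from 172 to 91.1 CPM at 12 h (-0.92, adjusted p = 2.56e-13, edgeR). NLGN1, a synaptic adhesion protein, went from 34.7 to 17.1 CPM at 12 h (-1.02, 1.89e-09), and PSEN2, a subunit of the protease that cuts protocadherin tails free, from 9.23 to 15.4 CPM at 24 h (0.75, 8.36e-05). AXIN1, a WNT pathway scaffold that binds the PCDHGC3 tail, was higher at 24 h (45.5 to 57.6 CPM, 0.34, 4.3e-05).

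The non-clustered protocadherins, relatives that lie elsewhere in the genome, included more genes called lower than higher in Dox at 12 and 24 h, where 19.9% and 16.9% of all genes were called lower. Of 10 tested, 1 was higher and 8 lower at 12 h (median -2.29), 1 and 8 at 24 h (median -1.40), and 4 and 3 at 48 h (median -0.11). Their summed level was 363 to 367 CPM in NoDox and 154 to 196 CPM in Dox at 12 h, and 388 to 409.7 against 219 to 246 CPM at 24 h. PCDH10 went from 26.5 to 1.57 CPM at 12 h and PCDH7 from 38.9 to 4.59 CPM, while PCDH18 was the 1 that was higher at 24 h (27.2 to 43.2 CPM, 0.67).

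None of the 6 nearest tested genes outside the locus was called at 24 h by edgeR, against 17% of all genes higher and 16.9% lower. At 12 h HDAC3 was higher (0.29, adjusted p = 0.000285) and DIAPH1 lower (-0.17, 0.0292). At 48 h HARS2 (0.42, 0.000241) and HDAC3 (0.21, 0.0152) were higher and DIAPH1 lower (-0.26, 0.00363, edgeR). The values at 24 h follow. On the alpha side HARS1 had the largest value (0.16, adjusted p = 0.0658, edgeR), beside HARS2 and ZMAT2, and on the gamma side DIAPH1 had 122 and 134 CPM (0.14, 0.083), beside HDAC3 (0.09) and RELL2 (-0.10). TAF7, a gene for a general transcription factor subunit that lies between the beta and gamma clusters, had 186 and 182 CPM at 24 h (-0.03, adjusted p = 0.787, edgeR). Of 15 flanking genes tested, 2 were higher and 1 lower at 12 h, 3 and 1 at 48 h, and 2 and none at 24 h, namely ARAP3 (64.2 to 84.3 CPM, 0.39) and FCHSD1 (26.7 to 33.1 CPM, 0.31).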

How the data were processed

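Poly-A RNA was sequenced in 21 libraries. The authors' deposited table gives counts per gene for 61268 genes. Alignment with STAR 2.7.9, counting with Subread 2.0.3, DESeq2 and hg38 are named in the submitters' processing notes, and neither annotation nor strandedness is given in the sources used here. Normalized values, a signal that the authors scaled per library and deposited, served 1 alternative only, on the log2 scale. The gene length in the authors' deposited table served a check.

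Counts were scaled by TMM and tested with edgeR 4.0.16 (quasi-likelihood F test, R 4.3.3) in 1 fit of all 7 groups, after filterByExpr (19655 genes as counted, 19666 with own reads). P-values were adjusted by Benjamini-Hochberg over all genes tested, with a threshold of 0.05. Alternatives used DESeq2 1.42.0, limma 3.58.1, other scalings and filters, the replicate number as a block, and each library left out in turn. The fit was tested on simulated data with known changes.

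Named genes were the 3 with the highest mean CPM in each cluster, the C-types, and up to 5 with the largest increase or decrease past the threshold (3 outside the Dox against NoDox comparisons) at 1 CPM or more, with up to 4 genes of each other list. Members and lists were chosen with earlier results of these data known. Results for some marker genes are not reported here.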

Additional observations from a re-analysis of the deposited data

Results flagged for a closer look

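Every value here is a difference between the Dox effects at 2 times (log2), tested in the edgeR fit over all genes and past the threshold, with 3 libraries in each of the 4 groups concerned. Between 24 and 12 h the gamma shared reads, for which PCDHGA3 stands, differed by 0.90. In own reads the difference was 1.61 for PCDHGC3, 1.21 for PCDHGB7, 1.19 for PCDHGC4, 1.16 for PCDHGA10, 0.83 for PCDHGC5 and 0.72 for PCDHGB6. The call for PCDHGC5 was lost in 11 of 15 alternatives.

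Between 48 and 24 h the difference was -0.60 for PCDHGA3 and 0.30 for PCDHB2. In own reads it was -0.82 for PCDHGC3, -0.75 for PCDHGB7, -0.72 for PCDHGC4, 1.31 for PCDHA5 and 0.80 for PCDHA10. These calls were lost in 3 of 20 alternatives for PCDHB2, 3 of 15 for PCDHA5 and 1 of 15 for PCDHA10. The values were negative for these gamma genes and positive for PCDHB2 and the 2 alpha genes.

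Between 48 and 12 h the difference was 0.30 for PCDHGA3, 0.37 for PCDHB2 and 0.92 for PCDHB3. In own reads it was 1.26 for PCDHA9, 1.03 for PCDHA7, 0.83 for PCDHGA10, 0.79 for PCDHGC3, 0.68 for PCDHA12, 0.65 for PCDHA10, 0.47 for PCDHGC4 and 0.40 for PCDHGB6. With library totals only, PCDHB3 alone of these 11 passed.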

How the results depend on the processing

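Calls as counted repeat the constant-exon reads. With own reads only, chosen after seeing the data, members called numbered 7 lower at 12 h, 6 higher and 4 lower at 24 h and 3 higher at 48 h for Dox against NoDox. Against day 10 they were 11 higher and 2 lower (NoDox 12 h), 5 and 2 (NoDox 48 h), 6 and 6 (Dox 12 h), 11 and 0 (Dox 24 h) and 14 and 1 (Dox 48 h). For the differences between times they were 6 higher (24 minus 12 h), 3 higher and 3 lower (48 minus 24 h) and 11 higher (48 minus 12 h), and 32 varied among the 7 groups. With shared reads counted once, the Dox to NoDox ratio at 12 h was 0.893 for alpha and 0.886 for gamma.

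Library totals in place of TMM factors moved every gene by 0.18 at 12 h, -0.01 at 24 h and -0.08 at 48 h. They gave 2 higher and 0 lower at 12 h, 2 higher and 8 lower at 48 h, 7 lower for NoDox at 12 h, 0 lower for Dox at 12 h and 2 higher and 8 lower for Dox at 48 h against day 10. Between times they gave 15 lower (24 minus 12 h), 0 higher (48 minus 24 h), and 1 higher and 16 lower (48 minus 12 h). Their cluster ratios were 1.109 for alpha, 1.006 for beta and 1.069 for gamma at 12 h and 0.9963 for beta at 48 h. No low count filter gave 4 lower at 24 h for Dox against NoDox, and against day 10 it gave 0 lower (NoDox 12 h), 6 lower (NoDox 48 h), 2 higher and 5 lower (Dox 12 h) and 1 lower (Dox 24 h), with 0 higher for 48 minus 24 h. Fitting only the groups compared gave 12 lower (NoDox 48 h), 2 higher and 5 lower (Dox 12 h) and 2 higher (Dox 48 h) against day 10, 1 lower for 24 minus 12 h and 2 higher for 48 minus 24 h. For NoDox at 12 h against day 10, median of ratios scaling, the DESeq2 Wald test, limma on the deposited normalized values and the groups compared alone each gave 2 lower. Per whole listed length, PCDHA12 was at 7.89 and PCDHGB6 at 40.2 CPM per kilobase.

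Leaving out 1 library gave, for Dox against NoDox, 0 to 1 higher and 1 to 3 lower at 12 h, 3 to 10 lower at 24 h and 12 to 22 higher at 48 h. Against day 10 it gave 0 to 11 lower (NoDox 12 h), 1 to 4 higher (NoDox 24 h), 1 to 4 higher and 1 to 22 lower (NoDox 48 h), 2 to 4 higher and 4 to 17 lower (Dox 12 h), 0 to 14 lower (Dox 24 h), and 2 to 5 higher and 0 to 1 lower (Dox 48 h). It gave 0 to 1 higher for 48 minus 24 h. Leaving out 1 replicate number in all groups (7 libraries), 30 to 46 members varied among the 7 groups, the lowest without replicate 2. Of 104 named values, 43 kept their call in every alternative run on them and 61 lost it in at least 1, and none changed sign. The cause of these shifts was not tested. The DESeq2 Wald test was not run for any difference among the 7 groups.

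By the replicate numbers, over 12805 genes of at least 5 CPM, same-numbered Dox and NoDox libraries had residual correlations of -0.121 to 0.088 at 12 h, 0.104 to 0.249 at 24 h and 0.058 to 0.272 at 48 h. At 24 h each library correlated best with its own number, at 12 and 48 h not every one did, and the labels state no pairing. With the replicate block no call at 24 h was lost among the named values, no count moved by more than 1.5 times (22 higher and 16 lower at 24 h), and the own-read calls lost were PCDHA7 at 48 h (0.73, edgeR adjusted p = 0.0555) and, in NoDox at 12 h against day 10, PCDHAC1 (0.84, 0.0571) and PCDHGB1 (-0.80, 0.0577).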
